A study of Eucalyptus grandis
Pisolithus microcarpus and Eucalyptus grandis with 23 samples.

Results

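The genes described here are 206 of the 36376 genes of Eucalyptus grandis in the deposited tables. Their transcripts were more abundant in fungus-free roots at 650 ppm CO2 than in fungus-free roots at 400 ppm, and less abundant in roots carrying either of 2 strains of the ectomycorrhizal fungus Pisolithus microcarpus at 650 ppm. A gene was included when it met 3 conditions on its CPM, the gene's read count scaled to an equal total for every library. Its lowest control library at 650 ppm had at least 1 CPM, that library was at least 2 times the highest control library at 400 ppm, and the highest of the 6 mycorrhizal libraries at 650 ppm reached at most 0.5 of it. The first 2 conditions were met by 614 genes, of which 408 failed the third. The 206 genes were thus chosen by their levels in those 4 groups. The differences of the other 3 groups from control roots at 650 ppm are given as a description with no test. The mycorrhizal libraries at 400 ppm played no role in the choice, so only SI-12 against SI-9 roots at 400 ppm is a comparison of groups that were both outside it.

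RNA was sequenced from the roots of in vitro seedlings, which were 1 month old when moved to plates and were harvested 1 month later. The labels give the tissue of fungus-free samples as control root and of the others as ectomycorrhiza. The groups were roots with strain SI-12 at 650 ppm (3 libraries), roots with strain SI-9 at 650 ppm (3), fungus-free control roots at 650 ppm (5), roots with SI-12 at 400 ppm (3), roots with SI-9 at 400 ppm (3) and control roots at 400 ppm (6). Mycorrhizal seedlings had a square of living mycelium laid on the root, and axenic controls had the same handling without it. The labels name no mutant or transgene. Each strain is a single isolate, so a result for a strain applies to that isolate. Roots hold many cell types, so in these bulk samples fewer cells of a type and less RNA per cell cannot be told apart.

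In an ectomycorrhiza the fungus forms a sheath around short lateral roots and grows between their outer cells, where the plant gives sugars and receives mineral nutrients. Elevated CO2 commonly raises photosynthesis and the supply of carbohydrate to roots, on which the fungal partner feeds. Setting fungus-free roots at both CO2 levels beside roots with each strain shows which transcripts that differ with CO2 in the plant alone also differ when a fungus is present. The files identify genes by locus ID only, and the reference table used (assembly ASM1654582v1) held 0 of the 36376, so no gene name, role or sequence is given and the tissue could not be checked against marker genes.

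Gene reads per library ran from 4497662 to 30210474, so 3 reads corresponded to 0.0995 to 0.683 CPM, and lower values rest on fewer than 3 reads. The libraries carry numbers in 2 consecutive runs. Run 1 holds all SI-9 roots and run 2 all SI-12 roots, with controls in both, so strain and run of numbers cannot be told apart. The labels do not say that these runs were batches. The labels call the libraries biological replicates. Libraries of a group fell into near-identical sets, however, with a coefficient of variation beyond counting noise of 0.059 to 0.158 within 10 sets and 0.245 to 0.52 between sets of a group. Each run of controls formed a set, SI-12 roots formed 1 set at each CO2 level, and SI-9 library 2 at 400 ppm and SI-9 library 3 at 650 ppm stood apart from the rest of their groups. P-values from single libraries therefore measure the spread between libraries, which may be technical.

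The 206 genes together took a small but clearly raised share of the RNA in fungus-free roots at 650 ppm. They held 0.163% to 0.166% of gene reads in SI-12 roots and 0.162% to 0.172% in SI-9 roots at 650 ppm, against 0.9997% to 1.26% in control roots at 650 ppm. At 400 ppm the share was 0.188% to 0.1996% in SI-12 roots, 0.184% to 0.192% in SI-9 roots and 0.150% to 0.188% in control roots. The control libraries at 650 ppm thus stood apart from all other groups, whose shares were all under 0.2%. For the mycorrhizal libraries at 650 ppm and the control libraries at 400 ppm, the rule built in a gap of this direction.

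**Figure D1:**
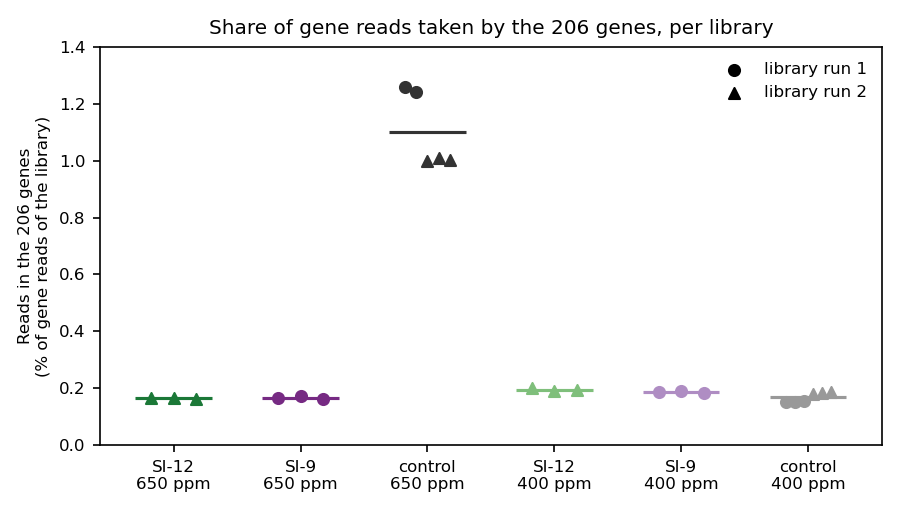
Share of each library's gene reads (vertical axis, percent) taken by the 206 genes in the 6 groups. Circles are libraries of run 1, triangles libraries of run 2 and lines group means. Control roots at 650 ppm lie at 0.9997% to 1.26%, and every other library lies below 0.2%.

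In control roots the mean level at 650 ppm was a median of 8.94-fold that at 400 ppm. It was under 4-fold for 28 genes, 4-fold to 10-fold for 84, 10-fold to 100-fold for 74 and 100-fold or more for 15. The other 5 genes, Eucgr.B03129.1, Eucgr.G00464.1, Eucgr.G01902.1, Eucgr.H02209.1 and Eucgr.J00441.1, had no read in any of the 6 control libraries at 400 ppm. Mycorrhizal roots at 650 ppm came close to the low control level, with a median of 11.2% of the control mean at 650 ppm in SI-12 roots and 9.45% in SI-9 roots, against 11.2% in control roots at 400 ppm. No reads at 650 ppm were found for 18 of the genes in SI-12 roots and for 11 in SI-9 roots, against 0 in control roots.

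Per kilobase of gene length, the most abundant of these transcripts in control roots at 650 ppm were Eucgr.F01727.1 at 638 RPKM, Eucgr.A01153.1 at 625.2 RPKM and Eucgr.B02376.1 at 549.7 RPKM. RPKM, as deposited by the authors, divides a scaled read count by the gene's length. The median over the 206 genes was 12.1 RPKM, beside 12.2 RPKM over the 20754 genes with at least 1 CPM in every control library at 650 ppm. The 206 genes were therefore ordinary in level, and a few of them were very abundant.

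Eucgr.A01153.1 had 82.7, 91.8 and 97.5 CPM in SI-12 roots at 650 ppm and 89.6, 83.1 and 223 CPM in SI-9 roots at 650 ppm, against 779.7, 846, 804, 900.1 and 869.6 CPM in control roots at 650 ppm. At 400 ppm it had 192, 165 and 184 CPM in SI-12 roots and 128, 152 and 132 CPM in SI-9 roots, against a lowest, median and highest of 141, 224 and 305 CPM in control roots. Only control roots at 650 ppm were above 305 CPM, and SI-9 library 3 at 650 ppm was above the other SI-9 libraries.

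Eucgr.K02521.1 had 47.0, 47.3 and 46.6 CPM in SI-12 roots and 38.8, 37.4 and 41.6 CPM in SI-9 roots at 650 ppm, against 602, 634, 352, 318 and 342 CPM in control roots. At 400 ppm it had 42.9, 31.9 and 41.4 CPM in SI-12 roots and 48.3, 37.5 and 36.9 CPM in SI-9 roots, against 24.2, 32.5 and 42.8 CPM as lowest, median and highest in control roots. No library outside control roots at 650 ppm exceeded 48.3 CPM, and the first 2 control libraries at 650 ppm, both of run 1, were above the other 3.

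Eucgr.D02651.1 had 7.54, 6.68 and 7.08 CPM in SI-12 roots and 5.76, 4.68 and 6.39 CPM in SI-9 roots at 650 ppm, against 279, 267, 357, 345 and 346 CPM in control roots. At 400 ppm its values were 7.24, 5.74 and 4.27 CPM in SI-12 roots and 3.64, 4.86 and 3.12 CPM in SI-9 roots, against 3.12, 3.65 and 5.51 CPM as lowest, median and highest in control roots. Eucgr.G00771.1 had 53.6, 48.6 and 57.0 CPM in SI-12 roots and 34.3, 33.6 and 37.9 CPM in SI-9 roots at 650 ppm, against 313, 310.3, 300.2, 298 and 280.2 CPM in control roots. Both genes were high in every control library at 650 ppm and in no other library.

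The remaining genes of the 10 with the highest CPM, Eucgr.B02376.1, Eucgr.F03980.1, Eucgr.G03037.1, Eucgr.J01192.1, Eucgr.B01895.1 and Eucgr.A02790.1, averaged 290 to 874 CPM in control roots at 650 ppm. Eucgr.B02376.1 had the highest mean, and 0.455% of its reads matched that gene alone, so its count is uncertain and varied between near-identical libraries.

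The genes with the widest gap were nearly silent in mycorrhizal roots at 650 ppm and in control roots at 400 ppm, the groups that defined the gap. For Eucgr.B03412.1 the values at 650 ppm were 0.478, 0.483 and 0.175 CPM in SI-12 roots and 0.335, 0.0407 and 0.0418 CPM in SI-9 roots, against 45.9, 44.8, 33.2, 34.2 and 29.8 CPM in control roots. Its highest library at 400 ppm had 0.0979 CPM in SI-12 roots, 0.455 CPM in SI-9 roots and 0.509 CPM in control roots. The control libraries at 650 ppm were thus all at least 29.8 CPM and every other library was under 1 CPM.

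Eucgr.K01799.1 was not read in SI-12 roots at either CO2 level and had 0, 0.0407 and 0 CPM in SI-9 roots at 650 ppm, against 22.8, 17.6, 20.3, 19.7 and 15.3 CPM in control roots at 650 ppm. At 400 ppm it was not read in SI-9 roots, and 1 of the 6 control libraries had 0.191 CPM. Eucgr.K01726.1, also among the 10 widest gaps, had a mean of 0.0536 CPM in SI-12 roots and 0.0136 CPM in SI-9 roots at 650 ppm, against 12.3 CPM in control roots. Reads matching a single gene made up 48.4% of those of Eucgr.K01799.1 and 50.2% of those of Eucgr.K01726.1, so each may include reads of a similar gene.

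Eucgr.G00464.1 had no read in 18 libraries, those of every group except control roots at 650 ppm, where it had 2.48, 4.24, 1.11, 1.54 and 1.83 CPM. Of its reads 44.8% matched that gene alone. The other genes of the 10 with the widest gap, Eucgr.H02209.1, Eucgr.I00503.1, Eucgr.B03129.1, Eucgr.B00617.1, Eucgr.G01807.1 and Eucgr.K00975.1, were likewise near 0 CPM in mycorrhizal roots at 650 ppm but were read in SI-9 roots at 400 ppm.

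**Figure D2:**
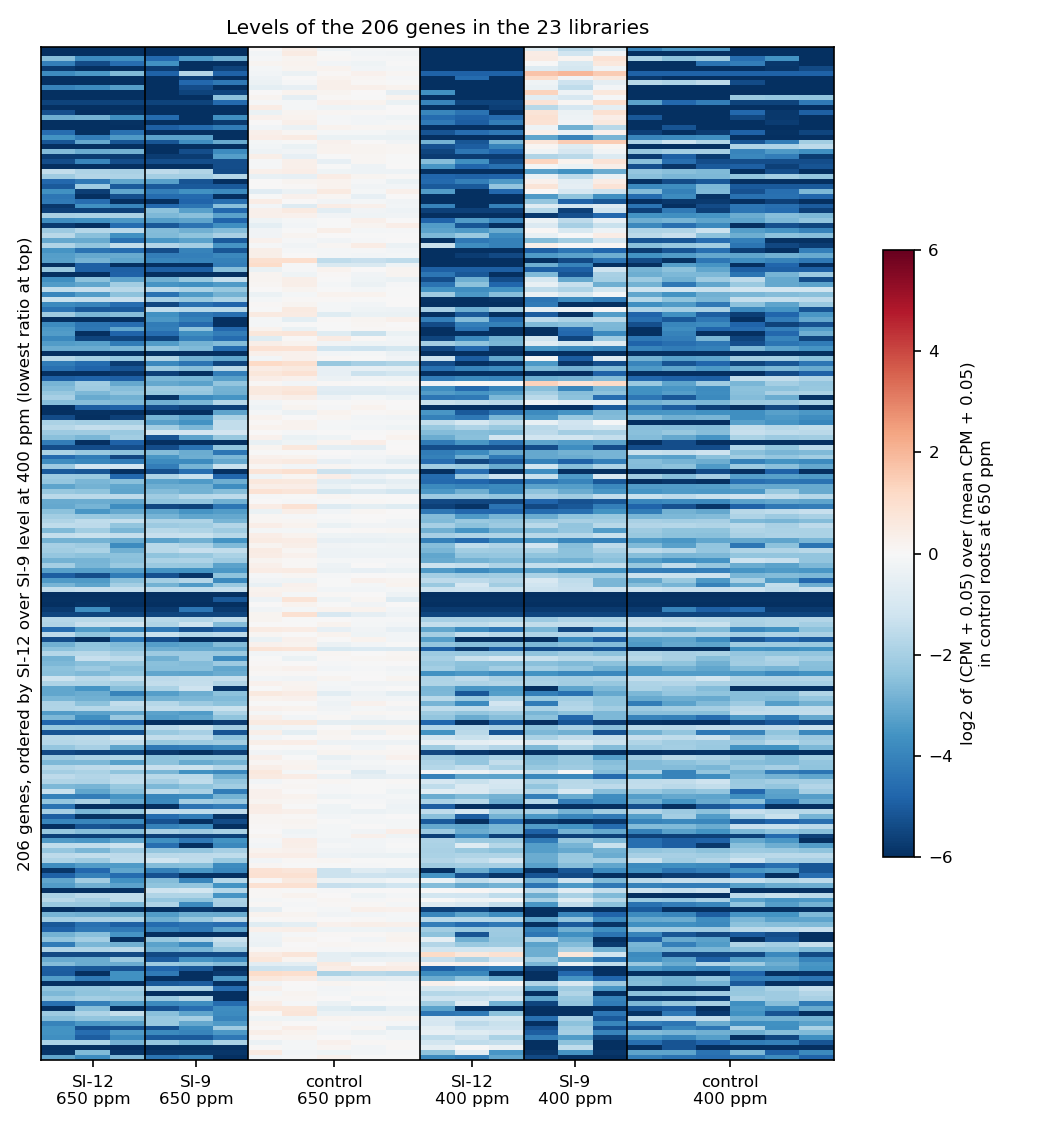
Level of each of the 206 genes (rows) in each of the 23 libraries (columns), as log2 of CPM plus 0.05 over the mean CPM of control roots at 650 ppm plus 0.05; blue is below that mean. Rows run from the lowest ratio of SI-12 to SI-9 level at 400 ppm at the top to the highest at the bottom. The block of control roots at 650 ppm is pale throughout, and the upper rows are pale in SI-9 roots at 400 ppm too.

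Genes near the limits of the rule differed little on either side. Eucgr.K00583.1 was included with a lowest control value at 650 ppm of 1.02 CPM and Eucgr.E02947.1 was not, with 0.952 CPM. The lowest control library at 650 ppm was 2.01 times the highest at 400 ppm for Eucgr.C02181.1, included, and 1.97 times for Eucgr.I02085.1, not included. It was 2.01 times the highest mycorrhizal library at 650 ppm for Eucgr.L02421.1, included, and 1.99 times for Eucgr.B01008.1, not included.

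The high level in control roots at 650 ppm was not uniform between the 2 runs. In the libraries of run 2, 25 of the 206 genes (12.1%) were lower by 2-fold or more than in those of run 1, beside 1.86% of the 20754 genes with at least 1 CPM in every control library at 650 ppm. The rule used these control libraries, and the 20754 genes did not have to meet its other limits, so these shares are a description with no test. A single gene of the 206, Eucgr.J00051.1, was higher in run 2 by 2-fold or more, with 93.1, 103 and 94.0 CPM in run 2 and 28.8 and 29.6 CPM in run 1. The widest difference, picked out after its values were seen, was that of Eucgr.K02328.1, with a mean of 6.27 CPM in run 2 and 53.5 CPM in run 1. Its highest library in any other group had 2.28 CPM, in SI-9 roots at 400 ppm, so both runs were above the other groups.

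The libraries with a fungus at 400 ppm show what these genes did without elevated CO2, and they were not part of the choice. Most of the 206 genes were low there too, with a median of 9.04% of the control mean at 650 ppm in SI-12 roots and 16.3% in SI-9 roots, against 11.2% in control roots at 400 ppm. In SI-12 roots 111 genes had all 3 libraries at or under the highest control library at 400 ppm, 4 had all 3 at or above the lowest control library at 650 ppm, and 91 lay between. In SI-9 roots the numbers were 95, 10 and 101. For 66 genes both strains were at or under the highest control library at 400 ppm, and for no gene did both strains reach the control level of 650 ppm.

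The 4 genes at the control level of 650 ppm in SI-12 roots, named for that count after their values were seen, were Eucgr.A02530.1, Eucgr.D01090.1, Eucgr.E00086.1 and Eucgr.J01981.1. Eucgr.D01090.1 had 9.10, 9.57 and 7.99 CPM in SI-12 roots and 1.14, 5.74 and 2.67 CPM in SI-9 roots at 400 ppm, against 0.664 to 2.31 CPM in control roots at 400 ppm. In control roots at 650 ppm it had 5.13 to 11.5 CPM. The SI-12 libraries at 400 ppm thus lay within the range of control roots at 650 ppm.

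The 10 genes at that level in SI-9 roots were Eucgr.B00617.1, Eucgr.B00619.1, Eucgr.B01257.1, Eucgr.B03129.1, Eucgr.C00578.1, Eucgr.F01765.1, Eucgr.H04423.1, Eucgr.J00441.1, Eucgr.K00824.1 and Eucgr.K01491.1, named in the same way. Relative to control roots at 650 ppm the highest was Eucgr.J00441.1, whose mean in SI-9 roots at 400 ppm was 345.4% of the control mean at 650 ppm. Eucgr.B00617.1 and Eucgr.B00619.1, whose IDs lie close together, were at 148% and 145.5% of it in SI-9 roots, against 1.11% and 3.36% in SI-12 roots.

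Among the 408 genes that met the conditions on control roots and failed the condition on mycorrhizal roots at 650 ppm, levels with a fungus were higher. Their median was 30.7% of the control mean at 650 ppm in SI-12 roots and 35.3% in SI-9 roots at 400 ppm, against 16.1% in control roots at 400 ppm. All 3 libraries reached the control level of 650 ppm for 65 of the 408 genes in SI-12 roots and for 34 in SI-9 roots, which is 15.9% and 8.33%, beside 1.94% and 4.85% of the 206 genes. Without SI-9 library 2 the SI-9 counts were 61 of the 408 (14.95%) and 22 of the 206 (10.7%). The 206 and the 408 genes were divided by their level in mycorrhizal roots at 650 ppm. That choice can itself favour this difference with the same strains at 400 ppm, so it is a description with no test.

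**Figure D3:**
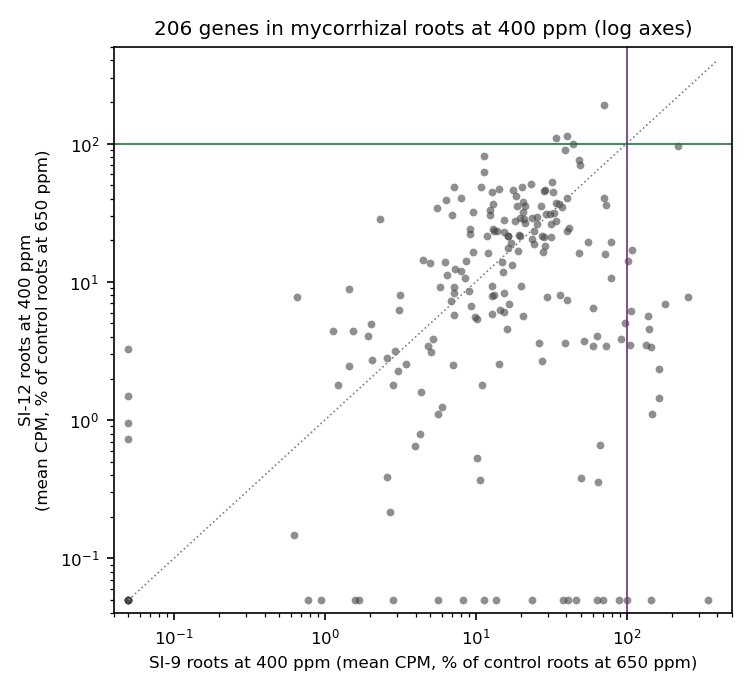
Each point is 1 of the 206 genes, with its mean CPM at 400 ppm as a percentage of its mean in control roots at 650 ppm, in SI-12 roots (vertical) and SI-9 roots (horizontal), on log axes with values under 0.05% drawn at 0.05%. Solid lines mark 100% and the dotted line equal levels. More genes pass 100% in SI-9 roots (17) than in SI-12 roots (3), and none passes it in both. Of the 408 genes that failed the condition on mycorrhizal roots, 48 were at or above 100% in SI-9 roots and 65 in SI-12 roots. Of the 20754 genes with at least 1 CPM in every control library at 650 ppm, the numbers were 10869 and 10616. Strain and run of library numbers cannot be told apart.

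Against control roots at 400 ppm, the 206 genes were split in SI-12 roots. The rule set an upper limit on these control libraries, so the genes were chosen in part for low values in them. This can favour calls of higher in mycorrhizal roots. Neither the shares here nor the p-values, including those of the single genes below, allow for it. With edgeR's quasi-likelihood test and Benjamini-Hochberg adjustment over the 27386 genes tested, 38 of the 206 were higher (18.4%, beside 14.5% of all genes tested) and 36 lower (17.5%, beside 17.8%), at an adjusted p under 0.05. The median difference was 0.00 on the log2 scale, beside -0.04 over all genes. All libraries of SI-12 roots lay above all control libraries for 41 genes (19.9%, beside 17.9%) and below them for 28 (13.6%, beside 14.1%). When near-identical libraries were summed into sets and each set counted once, 0 of the 206 genes and 0 of all genes were called by edgeR. DESeq2 on sets called 21 (10.2%, beside 4.15% of all genes tested).

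Eucgr.A02524.1 had 13.8, 20.4 and 16.4 CPM in SI-12 roots at 400 ppm, against 0.265, 0.529, 0.122, 0, 0 and 0 CPM in control roots at 400 ppm. It was higher by a log2 difference of 6.44 ± 0.89 (SE, adjusted p = 3.68e-05). At 650 ppm it had no read in any mycorrhizal library, against 18.3 to 22.8 CPM in control roots. Its transcripts were thus present with SI-12 at 400 ppm and without a fungus at 650 ppm, and not detected at this depth in mycorrhizal roots at 650 ppm.

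Eucgr.A02530.1, whose ID lies close to that of Eucgr.A02524.1, had 26.6, 22.9 and 23.7 CPM in SI-12 roots at 400 ppm, against 3.68, 2.91, 3.04, 0.636, 0 and 0 CPM in control roots. The log2 difference was 3.71 ± 0.64 (adjusted p = 0.000147). At 650 ppm it had 0.159 to 0.262 CPM in SI-12 roots and 0.167 to 0.651 CPM in SI-9 roots, against 19.3 to 24.8 CPM in control roots. Eucgr.E00086.1 completed the 3 largest rises, with 4.601, 3.403 and 3.93 CPM in SI-12 roots against 0 to 0.0995 CPM in control roots (log2 difference 6.45 ± 0.79, adjusted p = 1e-05). It had no read in mycorrhizal roots at 650 ppm, against 1.21 to 3.50 CPM in control roots at 650 ppm. All 3 genes were therefore higher with SI-12 at 400 ppm than with SI-12 at 650 ppm, a group that the rule capped.

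The largest falls with SI-12 at 400 ppm were those of Eucgr.B01004.1, Eucgr.B01896.1 and Eucgr.G00406.1. Eucgr.B01896.1 had 0.392, 0.425 and 0 CPM in SI-12 roots, against 10.6, 9.87, 10.8, 15.97, 21.3 and 19.6 CPM in control roots (log2 difference -5.97 ± 0.51, adjusted p = 3.24e-08). Its neighbour in the ID order, Eucgr.B01895.1, fell by 2.07 ± 0.19 on the log2 scale (adjusted p = 1.09e-07), with 7.34 to 7.64 CPM in SI-12 roots against 21.8 to 38.9 CPM in control roots. Both were above these levels in SI-12 roots at 650 ppm, at 33.1 to 34.2 CPM for Eucgr.B01896.1 and 39.3 to 41.8 CPM for Eucgr.B01895.1.

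Eucgr.B01004.1 had no read in SI-12 roots at 400 ppm, against 0.446 to 1.99 CPM in control roots, which is at least 11.4-fold lower with 3 reads over the group as the floor (adjusted p = 0.00011). Eucgr.G00406.1 likewise had no read in SI-12 roots, against 0.0405 to 0.340 CPM in control roots, at least 2.09-fold lower (adjusted p = 0.0183). Its control values were themselves near the level of a few reads, and the call was lost without SI-12 library 1 (adjusted p = 0.0505) or library 3 (adjusted p = 0.0701).

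The same limit on control libraries holds for SI-9 roots at 400 ppm, so the counts against control roots are a description from which no excess is read. The p-values of single genes against control roots do not allow for it either. Of the 206 genes 58 were higher (28.2%, beside 11.3% of all genes tested) and 22 lower (10.7%, beside 11.8%), with the same test and threshold, and the median log2 difference was 0.10, beside -0.01 over all genes. All SI-9 libraries lay above all control libraries for 54 genes (26.2%, beside 13.4%) and below them for 17 (8.25%, beside 9.63%). As sets, 0 genes were called by edgeR. DESeq2 on sets called 43 (20.9%, beside 3.39% of all genes tested), of which 35 were higher. Against the control libraries of the same run only, 97 were called (47.1%, beside 28.5% of all genes tested), 71 higher and 26 lower. These control libraries are shared with the comparison for SI-12 roots.

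Eucgr.G01807.1 had 44.6, 21.5 and 37.1 CPM in SI-9 roots at 400 ppm, against a lowest, median and highest of 0.0756, 0.229 and 0.425 CPM in control roots (log2 difference 7.25 ± 0.42, adjusted p = 3.89e-10). It had 0.112, 0 and 0.418 CPM in SI-9 roots at 650 ppm, against 25.1, 30.1, 23.2, 21.7 and 22.997 CPM in control roots at 650 ppm. With SI-9 this gene was thus high at 400 ppm and near 0 CPM at 650 ppm, the reverse of its order in control roots. The rule set limits on its level in both control groups and in SI-9 roots at 650 ppm. Only the level in SI-9 roots at 400 ppm was free of the rule.

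Eucgr.I00503.1 had 19.4, 6.13 and 12.6 CPM in SI-9 roots at 400 ppm, against 0, 0, 0.0811, 0, 0 and 0 CPM in control roots. From 317 and 2 reads the ratio was 742 (95% exact interval 204 to 6155, counting error only; adjusted p = 1.8e-08). It had no read in SI-12 roots at either CO2 level and 0.0559, 0 and 0.0836 CPM in SI-9 roots at 650 ppm, against 12.5, 19.8, 13.9, 12.7 and 12.3 CPM in control roots at 650 ppm. Only control roots at 650 ppm and SI-9 roots at 400 ppm held more than 1 CPM of it.

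Eucgr.J00441.1 had 4.55, 5.64 and 4.09 CPM in SI-9 roots at 400 ppm and no read in control roots, at least 208-fold higher (adjusted p = 1.26e-05). Eucgr.B03129.1 had 10.5, 3.41 and 6.61 CPM in SI-9 roots and no read in control roots, at least 265-fold higher (adjusted p = 1.5e-06). Both exceeded their means in control roots at 650 ppm, 1.38 and 4.19 CPM, in their SI-9 mean at 400 ppm. Eucgr.H02209.1, 1 of the widest gaps at 650 ppm, had 1.82, 2.92 and 4.01 CPM in SI-9 roots at 400 ppm against no read in control roots, at least 144-fold higher (adjusted p = 1.63e-06). Like Eucgr.B03129.1, Eucgr.I00503.1 and Eucgr.G01807.1, it was ranked among the widest gaps partly for low values in these control libraries. The p-values do not allow for that choice.

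The largest falls with SI-9 at 400 ppm were those of Eucgr.H04290.1, Eucgr.J00051.1 and Eucgr.G03037.1. Eucgr.G03037.1 had 5.47, 12.3 and 6.76 CPM in SI-9 roots, against 32.0, 31.9, 28.8, 72.4, 68.9 and 64.3 CPM in control roots (log2 difference -2.60 ± 0.38, adjusted p = 4.85e-05). Eucgr.J00051.1 had 1.37, 1.56 and 0.297 CPM in SI-9 roots, against 4.34 to 7.56 CPM in control roots (log2 difference -2.68 ± 0.55, adjusted p = 0.00148). Eucgr.H04290.1 had 0.228, 0 and 0 CPM in SI-9 roots, against 0.369 to 0.803 CPM in control roots (adjusted p = 0.0152), and its SI-9 value rests on 1 read. That call was lost without SI-9 library 2 (adjusted p = 0.0721) or library 3 (adjusted p = 0.121). In these 3 genes SI-9 roots at 400 ppm were below even the low control level.

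**Figure D4:**
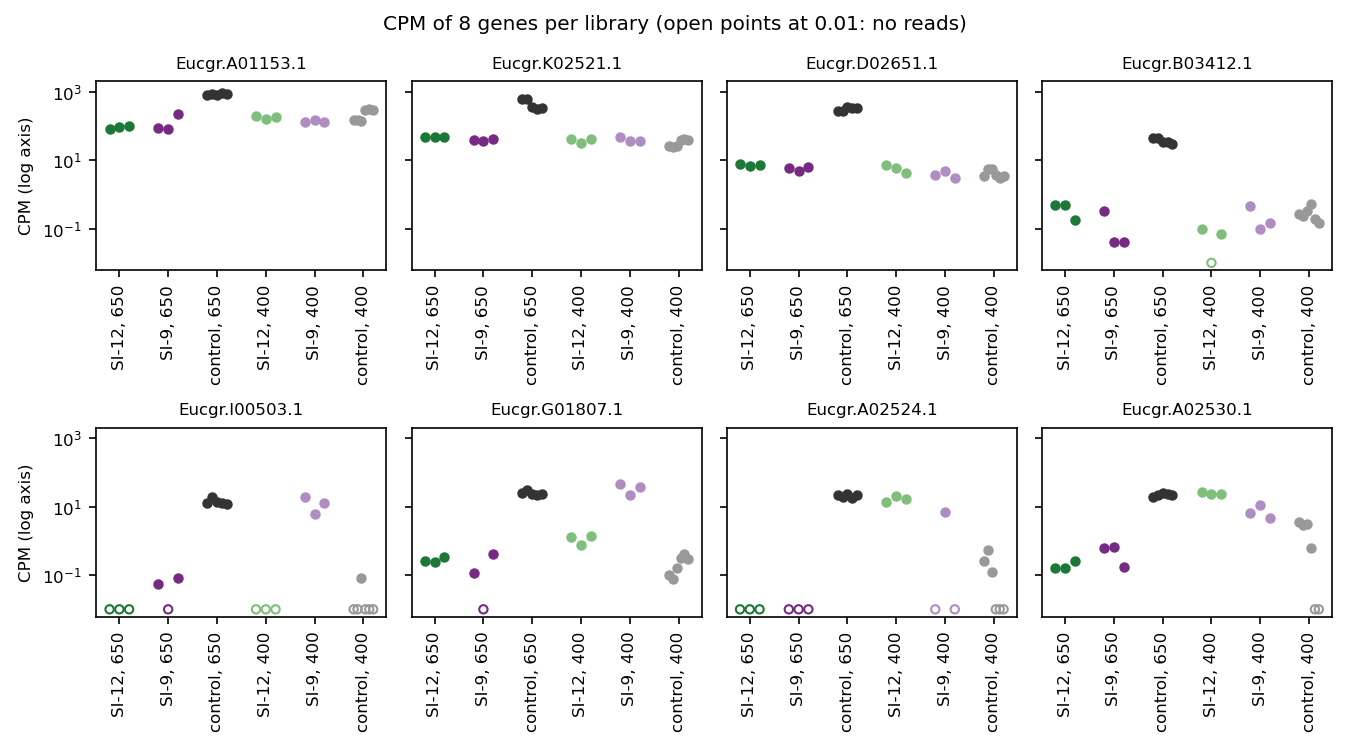
CPM of 8 of the genes in every library, on a log axis. Each panel is a gene, points are libraries, groups run from SI-12 at 650 ppm on the left to controls at 400 ppm on the right, and open points at 0.01 stand for no reads. The upper row is lower in all groups except control roots at 650 ppm, whereas the lower row is also above 1 CPM in SI-9 or SI-12 roots at 400 ppm.

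In the fit of single libraries SI-12 and SI-9 roots differed at 400 ppm, in libraries that the choice of genes did not use. Strain and run of library numbers coincide, so the difference cannot be credited to strain. In SI-12 roots 20 of the 206 genes were higher than in SI-9 roots (9.71%, beside 12.6% of all genes tested) and 56 were lower (27.2%, beside 15.4%), and the median log2 difference was -0.19, beside 0.01 over all genes. All SI-12 libraries lay above all SI-9 libraries for 43 genes (20.9%, beside 23.4%) and below them for 64 (31.1%, beside 22.5%). As sets, 0 genes were called by edgeR. DESeq2 on sets called 32 (15.5%, beside 2.26% of all genes tested), all lower in SI-12 roots. With run of library numbers as a block, 75 were called (36.4%, beside 24.1% of all genes tested), 26 higher and 49 lower. The median was then -0.03, beside -0.01 over all genes.

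The largest differences were of genes read in SI-9 roots and not in SI-12 roots. Eucgr.L03521.1 had no read in SI-12 roots at 400 ppm, against 20.04, 10.5 and 14.9 CPM with SI-9. The level with SI-12 was at least 161-fold lower, with an adjusted p of 0.000273. In control roots at 400 ppm this gene averaged 2.63 CPM in run 1, which holds SI-9 roots, and 0.0738 CPM in run 2, which holds SI-12 roots. Its control roots thus differed between the runs in the same direction, and strain and run cannot be told apart. Eucgr.C00578.1 had no read in SI-12 roots, against 5.69, 4.48 and 7.28 CPM with SI-9, and was at least 68.9-fold lower (adjusted p = 3.72e-05). For Eucgr.I00503.1, with its values given above, the bound was 129-fold lower (adjusted p = 1.11e-06). All 3 genes were near 0 CPM with both strains at 650 ppm, where no SI-12 or SI-9 library exceeded 0.637 CPM of any of them.

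Eucgr.G01807.1 and Eucgr.H00531.1 were read in SI-12 roots too, at lower levels. Eucgr.G01807.1 had 1.27, 0.744 and 1.35 CPM in SI-12 roots, against 44.6, 21.5 and 37.1 CPM in SI-9 roots (log2 difference -4.91 ± 0.49, adjusted p = 6.2e-07). Eucgr.H00531.1 had 0.196, 0.319 and 0.406 CPM in SI-12 roots, against 10.9, 6.42 and 10.7 CPM in SI-9 roots (log2 difference -4.87 ± 0.48, adjusted p = 5.5e-07). In SI-12 roots Eucgr.G01807.1 was nevertheless above control roots at 400 ppm (log2 difference 2.34 ± 0.51, adjusted p = 0.00134).

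Other genes with a wide gap between control roots at 650 ppm and the groups below them rest on few reads in SI-12 roots at 400 ppm. Eucgr.B00617.1 had 0, 0.213 and 0 CPM in SI-12 roots, against 13.2, 5.45 and 9.73 CPM in SI-9 roots. Its ratio was 149.8-fold lower from 2 and 245 reads (95% exact interval 41.0 to 1244, adjusted p = 4.41e-06). Eucgr.K00975.1 had no read in SI-12 roots, against 4.78, 3.99 and 7.21 CPM with SI-9, and was at least 64.8-fold lower (adjusted p = 4.4e-06). Both were again near 0 CPM in control roots at 400 ppm.

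In the other direction, Eucgr.I00588.1 had 5.68, 6.81 and 4.33 CPM in SI-12 roots at 400 ppm, against 0.911, 1.56 and 0.297 CPM in SI-9 roots (log2 difference 2.62 ± 0.58, adjusted p = 0.00228). Eucgr.A02524.1 had 13.8, 20.4 and 16.4 CPM in SI-12 roots, against 0, 7.10 and 0 CPM in SI-9 roots (log2 difference 2.73 ± 0.96, adjusted p = 0.0428). Eucgr.H04290.1 had 0.783, 0.638 and 1.29 CPM in SI-12 roots, against 0.228, 0 and 0 CPM in SI-9 roots, a ratio of 27.0 from 33 and 1 reads (95% exact interval 4.52 to 1098, adjusted p = 0.00502). The call for Eucgr.A02524.1 rests on SI-9 libraries that disagree, since only library 2 had reads of it. It was lost with DESeq2 (adjusted p = 0.242), in a fit of only the groups compared (0.0521), with run of library numbers as a block (0.0531) and without any 1 of SI-12 libraries 1, 2 and 3 or SI-9 libraries 1 and 3 (0.0663 to 0.125). The call for Eucgr.H04290.1 was lost without SI-9 library 3 (adjusted p = 0.0511).

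Library 2 of SI-9 roots at 400 ppm stood apart from its companions over all genes with enough reads, not in the 206 genes alone. Its coefficient of variation beyond counting noise was 0.248 with library 1 and 0.276 with library 3, beside 0.0962 between libraries 1 and 3. In 31 of the 206 genes libraries 1 and 3 had at least 1 CPM and at least 10 times the SI-12 mean, and library 2 was below both in 27 of them, at a median of 54.6% of their mean (range 38.0% to 131%). In 4 genes, Eucgr.A02524.1, Eucgr.E03505.1, Eucgr.H05115.1 and Eucgr.K02307.1, SI-12 libraries had at least 1 CPM and at least 10 times the level of SI-9 libraries 1 and 3, and there library 2 was above both in all 4, at a median of 48.6% of the SI-12 mean (range 42.1% to 90.2%). Both sets of genes were chosen without library 2 and for a wide difference among the other libraries, a choice that itself favours intermediate values in library 2, so its place is a description. The same counts were not made over all genes, so no trait of the 206 genes is read from them. Without it, 90 of the 206 genes were called between the strains at 400 ppm (43.7%, beside 31.7% of all genes tested), and 22 genes in SI-9 roots reached the control level of 650 ppm in place of 10. For Eucgr.A02524.1 the SI-9 difference from control roots was -4.77 on the log2 scale without library 2 (adjusted p = 0.226) and 3.71 with it (adjusted p = 0.0105). What library 2 contributed to each result beyond these values was not tested.

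At 650 ppm the rule used the libraries of both strains and capped them at the same level, so the counts between them are a description from which nothing is read. In SI-12 roots 14 were higher than in SI-9 roots (6.8%, beside 6.52% of all genes tested) and 7 lower (3.4%, beside 8.02%), and the median log2 difference was 0.04, beside -0.01 over all genes. All SI-12 libraries lay above all SI-9 libraries for 37 genes (18%, beside 20.6%) and below them for 17 (8.25%, beside 15.5%). As sets, 0 genes were called by edgeR. DESeq2 on sets called 4 (1.94%, beside 1.62% of all genes tested). With run of library numbers as a block, there were 36 calls (17.5%, beside 19% of all genes tested), of which 22 were higher. The count was 32 without the SI-9 library that stood apart at 650 ppm, library 3 (15.5%, beside 16.2% of all genes tested).

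Eucgr.F02784.1 had 0.690, 0.322 and 0.700 CPM in SI-12 roots at 650 ppm, against 38.4, 42.7 and 28.1 CPM in SI-9 roots (log2 difference -5.99 ± 1.47, or -3.21 with run of library numbers as a block). Control roots at 650 ppm had 88.2 to 95.03 CPM of it. At 400 ppm it had 92.6, 96.5 and 82.1 CPM in SI-12 roots and 30.5, 56.7 and 33.96 CPM in SI-9 roots, against 37.3, 33.8 and 37.4 CPM in the control libraries of run 1 and 0.127, 0.331 and 0 CPM in those of run 2. The control libraries of the 2 runs thus did not overlap at 400 ppm, whereas those at 650 ppm were alike.

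The other large differences at 650 ppm were in genes of low level. Eucgr.G00532.1 had 0.319, 0.161 and 0.262 CPM in SI-12 roots, against 2.18, 1.59 and 4.05 CPM in SI-9 roots (log2 difference -3.36 ± 0.51). Eucgr.C00336.1 had 0.159, 0.0804 and 0.0874 CPM in SI-12 roots, against 1.51, 1.30 and 1.38 CPM in SI-9 roots (log2 difference -3.56 ± 0.72). Eucgr.E03505.1 had 2.66, 3.14 and 3.24 CPM in SI-12 roots and no read with SI-9, which makes it at least 65.3-fold higher. At 400 ppm the same gene had 5.19, 5.42 and 5.89 CPM in SI-12 roots, against 0, 4.96 and 0 CPM in SI-9 roots, so it was again SI-9 library 2 alone that had reads of it. With SI-12, Eucgr.H01647.1 exceeded its level with SI-9 by at least 16.1-fold. Eucgr.H00531.1 had 11 reads against 1, a ratio of 17.1 (95% exact interval 2.49 to 736.5).

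**Figure D5:**
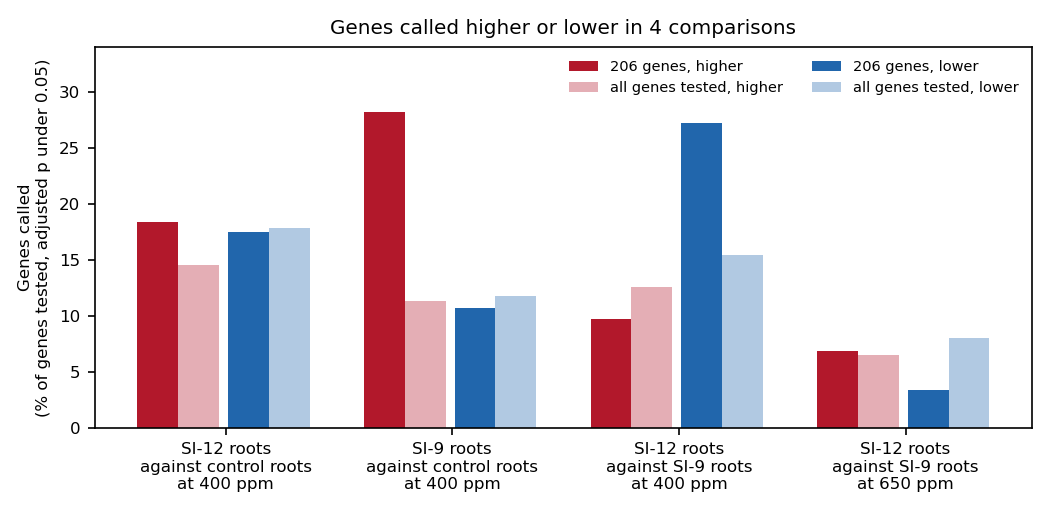
Percentage of genes called higher (red) or lower (blue) at an adjusted p under 0.05 in 4 comparisons, for the 206 genes (dark bars) and for all 27386 genes tested (pale bars), from the fit of single libraries. Only SI-12 against SI-9 at 400 ppm compares groups that were both outside the rule. There 27.2% of the 206 genes were lower, beside 15.4% of all genes, and strain and run of library numbers cannot be told apart.

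Within mycorrhizal roots the 206 genes were higher at 650 ppm in some cases and lower in others. Since the rule capped the libraries at 650 ppm, the counts are a description with no test. In SI-12 roots all libraries at 650 ppm were above all libraries at 400 ppm for 48 genes (23.3%, beside 28.6% of all genes tested) and below them for 56 (27.2%, beside 26%). In SI-9 roots the numbers were 28 above (13.6%, beside 16.6%) and 61 below (29.6%, beside 17.9%). Eucgr.H04423.1, chosen after its values were seen, had 3.72, 6.19 and 3.06 CPM at 650 ppm and 23.004, 27.9 and 24.9 CPM at 400 ppm in SI-12 roots. In SI-9 roots it had 3.13, 2.77 and 5.10 CPM at 650 ppm and 69.7, 46.0 and 58.1 CPM at 400 ppm. In control roots the order was the opposite, as the rule required, with 23.2 to 27.3 CPM at 650 ppm and 2.87 to 6.33 CPM at 400 ppm. Reads matching a single gene made up 65.7% of its reads.

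Control sets at 400 ppm also disagreed for some of the genes. In 6 of the 206 (2.91%, beside 0.52% of the 20754 genes with at least 1 CPM in every control library at 650 ppm) run 2 was 10-fold or more below run 1, and in 5 (2.43%, beside 0.761%) it was 10-fold or more above. The rule chose the 206 genes for low values in these libraries, which can itself favour wide ratios between runs, so the shares are a description with no test. The 6, named after their values were seen, were Eucgr.F02784.1, Eucgr.L00918.1, Eucgr.L03521.1, Eucgr.A02530.1, Eucgr.E00620.1 and Eucgr.E02923.1. The 5 were Eucgr.E01286.1, Eucgr.E04206.1 and the consecutive IDs Eucgr.D01484.1, Eucgr.D01485.1 and Eucgr.D01486.1, also named after their values were seen. These consecutive IDs had means of 17.2, 18.9 and 10.1 CPM in run 2 and 1.28, 0.0876 and 0 CPM in run 1. Reads matching a single gene made up 37.9% to 59.1% of their reads. In control roots at 650 ppm the same 3 genes had 31.9 to 74.6 CPM in every library of both runs.

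The 206 genes were shorter than the 20754 genes with at least 1 CPM in every control library at 650 ppm, with a median length of 1294 and 1578 bases. Fewer than 90% of reads matched a single gene in 64 of them (31.1%, beside 17.7%), and fewer than 50% in 13 (6.31%, beside 2.46%). The 408 genes that failed the condition on mycorrhizal roots resembled them in both, with a median length of 1293 bases and 34.1% of genes under 90%. Part of the list may thus share reads with similar genes. On reads matching a single gene 198 genes met the rule, of which 192 were among the 206.

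By the letter in their ID, 32 of the genes belonged to K, or 1.70 per 100 genes with at least 1 CPM in every control library at 650 ppm, and 7 to I, or 0.477 per 100, beside 0.993 per 100 over all letters. Where ID numbers follow gene order, some of the genes lay close together. Leaving out the letter L, 53 of 193 genes fell in 23 runs of IDs no more than 10 numbers apart (27.5%, beside 32.4% of the 361 genes outside L that failed the condition on mycorrhizal roots). The longest run held 7 genes between Eucgr.J01959.1 and Eucgr.J01981.1, with mean levels of 2.55 to 29.0 CPM in control roots at 650 ppm and 35.6% to 99.2% of reads matching a single gene.

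Neighbours did not always move alike. Eucgr.E04206.1 and Eucgr.E04208.1, picked out after their values were seen, were both higher in SI-9 roots than in control roots at 400 ppm. Eucgr.E04208.1 had 8.88, 4.09 and 10.6 CPM in SI-9 roots at 400 ppm, against 0.0378 to 0.127 CPM in control roots. Eucgr.E04206.1 had 29.8, 16.6 and 29.7 CPM in SI-9 roots, against 0.265, 0 and 0.243 CPM in control libraries of run 1 and 7.96, 7.75 and 9.23 CPM in those of run 2. The control sets thus differed for Eucgr.E04206.1 and overlapped for Eucgr.E04208.1.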

How the data were processed

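Each of the 23 libraries came with gene read counts and RPKM, as deposited by the authors. The file headers name total gene reads, unique gene reads (reads matching a single gene) and RPKM. The deposited RPKM values equal total gene reads scaled by gene length and library total. Read counts were the basis of every test, and RPKM served only to compare levels between genes. The aligner, genome build, annotation and strand setting were not given in the sources used here.

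CPM was computed from total gene reads over the column sum without Eucgr.B01584.1, which took up to 16.2% of a library. Genes were tested with edgeR 4.0.16 (R 4.3.3, limma 3.58.1) by its quasi-likelihood test, two-sided, with TMM factors, a filter on low counts by group and Benjamini-Hochberg adjustment over the 27386 genes tested, in 1 fit of all libraries. All 206 genes passed the filter, which the rule secured through their level in control roots at 650 ppm. In fits of only the groups compared, 147 passed for SI-12 against control roots and 165 for SI-9 against control roots. Between the strains 152 passed at 400 ppm and 136 at 650 ppm. Shares and medians over the 206 genes thus include genes with few reads in both groups compared. Log2 differences are TMM-scaled. DESeq2 1.42.0, sets of near-identical libraries, blocks, other scalings and left-out libraries were alternatives. The code was tested on simulated data. Folds against a group with no reads use 3 reads over that group as the floor, and intervals and floors cover counting error only. The members and lists were chosen with earlier results of these data known.

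Genes were named by rank: the 10 with the highest mean CPM in control roots at 650 ppm, the 10 with the largest ratio of the lowest control library at 650 ppm to the highest control library at 400 ppm or mycorrhizal library at 650 ppm, the 3 largest rises and 3 largest falls per comparison among called genes whose libraries do not overlap, and the genes nearest each limit of the rule. Other names are marked as chosen after their values were seen, and those in lists by group are named for that count. Same-numbered libraries of 2 groups did not deviate together (correlations of -0.0427 to 0.0268), so the numbers were not taken as pairs.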

Additional observations from a re-analysis of the deposited data

Results flagged for a closer look

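In 5 of the 74 groups of libraries examined for it, 1 library stood far from the others. In control roots at 650 ppm these were the highest libraries of Eucgr.B02376.1 at 1118 CPM, Eucgr.I00503.1 at 19.8 CPM and Eucgr.C00336.1 at 6.47 CPM. In control roots at 400 ppm they were the highest libraries of Eucgr.I00503.1 at 0.0811 CPM and Eucgr.K01799.1 at 0.191 CPM. Each flagged library at 400 ppm was the only library of its group with reads of that gene. A chance rate of about 1 in 20 would assume independent libraries, whereas those of each control group fell into near-identical sets. All 5 groups were of control roots, whose libraries the rule used. The count is thus a description, and neither an excess nor a lack is read from it.

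By the test of SI-12 against SI-9 roots at 400 ppm, 20 of the 206 genes were higher (9.71%, beside 12.6% of all genes tested). Lower were 56 (27.2%, beside 15.4%). Strain and run of library numbers cannot be told apart, and with near-identical libraries as sets edgeR called 0. Given here are the 3 largest in each direction among genes whose libraries did not overlap. The log2 difference was 4.37 for Eucgr.H04290.1, 2.73 for Eucgr.A02524.1 and 2.62 for Eucgr.I00588.1, higher in SI-12 roots. It was -11.03 for Eucgr.L03521.1, -10.77 for Eucgr.I00503.1 and -9.67 for Eucgr.C00578.1, lower in SI-12 roots. These last 3 had no reads in SI-12 roots, so their fitted values depend on the prior count and are not bounds.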

How the results depend on the processing

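The number of genes meeting the rule depended on its limits. It was 384 with a fold of 1.5, 113 with a fold of 3, 857 with controls of run 1 and SI-9 roots only, and 551 with controls of run 2 and SI-12 roots only. Leaving out single libraries gave 207 to 226 genes, all 206 among them. SI-9 roots at 400 ppm reached the control level of 650 ppm in 10 to 22 genes when single libraries were left out.

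With near-identical libraries as sets, edgeR called 0 of the 206 genes in each of the 4 comparisons, also without SI-9 library 2 at 400 ppm. DESeq2 on sets was an alternative chosen after seeing the data. It called 21 between SI-12 and control roots (10.2%, beside 4.15% of all genes) and 43 between SI-9 and control roots (20.9%, beside 3.39%). Between SI-12 and SI-9 roots it called 32 at 400 ppm (15.5%, beside 2.26%) and 4 at 650 ppm (1.94%, beside 1.62%). The cause of the gap between the tools was not tested. In fits of only the groups compared, fewer of the genes passed the filter. Between SI-9 and control roots 53 were called (32.1% of those that passed, beside 18% of all genes tested). Between SI-12 and control roots 55 of 147 were called (37.4%, beside 29.9%). Between the strains at 400 ppm 77 of 152 were called (50.7%, beside 31.1%), 26 higher and 51 lower in SI-12 roots. At 650 ppm 18 of 136 were called (13.2%, beside 13.3%). With run of library numbers as a block, 36 were called between the strains at 650 ppm (17.5%, beside 19% of all genes tested). The cause was not tested. Leaving out single libraries gave 53 to 77 calls for SI-12 against control roots (25.7% to 37.4%, beside 24.2% to 31.8% of all genes tested). For SI-9 against control roots it gave 65 to 81 (31.6% to 39.3%, beside 13.4% to 22.4%). Between the strains the counts were 59 to 90 at 400 ppm (28.6% to 43.7%, beside 15.9% to 31.7%). At 650 ppm they were 17 to 32 (8.25% to 15.5%, beside 9.06% to 16.2%).

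The replicate number as a block gave 65, 74, 77 and 23 calls in the same order. These were 31.6%, 35.9%, 37.4% and 11.2% of the 206 genes, beside 30.3%, 19.3%, 27.9% and 14.1% of all genes tested. The replicate numbers mark no pairing, since same-numbered libraries did not deviate together. The difference of Eucgr.A02524.1 between SI-9 and control roots at 400 ppm, 3.71 on the log2 scale, was -4.77 to 4.53 when single libraries were left out, the lowest without SI-9 library 2, and -5.90 as sets without that library.

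Of 66 calls of named genes, DESeq2 kept 60, and TMM was replaced by RLE or column sums with all 66 kept. With near-identical libraries as sets, edgeR kept 0 of the 66 and DESeq2 kept 36. As sets without SI-9 library 2 at 400 ppm, edgeR again kept 0, and 1 reversed in direction. Libraries of 4497662 to 30210474 reads limit genes under about 3 reads.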
